A study of Mus musculus with 12 samples.

Results

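The genes described here encode the proteins of the cytosolic ribosome. They were the annotated protein-coding mouse genes whose symbols follow the Rpl, Rps and Rplp pattern (a number, optionally with a or x), together with Rpsa. The deposited counts held 76 such genes among 46517, of which 46 encode proteins of the large subunit and 30 proteins of the small subunit. Genes whose symbols do not follow the pattern (such as Rps3a1, Fau and the paralogs of several members) were outside this set.

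A cytosolic ribosome holds these proteins in fixed proportion, so cells keep their amounts in balance. Many of their mRNAs begin with a terminal oligopyrimidine tract, a C followed by a run of C and T bases, through which the kinase complex mTORC1 and the RNA-binding protein Larp1 adjust how strongly they are translated. AMPK, a kinase that senses low cellular energy, restrains mTORC1. Neurons with long processes are known to carry ribosomal protein mRNAs into axons and dendrites as well.

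The study asked which transcripts change in the ventromedial nucleus of the hypothalamus (VMN) when AMPK activity is missing. It used translating ribosome affinity purification (TRAP): an affinity tag on a ribosomal protein, made in the cells of interest, lets the ribosomes of those cells be purified together with the RNA bound to them. There were 12 libraries in 4 groups of 3: DN output, DN input, CTRL output and CTRL input. DN animals had a virus (AAV) for a dominant-negative AMPK in the VMN, and CTRL animals lacked it according to their characteristics. For CTRL samples the treatment field lists that virus too, so the grouping rests on the titles and characteristics.

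All animals, DN and CTRL, had a second AAV for a GFP-L10 ribosomal fusion protein, ate regular chow and were sampled after an overnight fast. Each library came from a pool of 6 animals, and the output and input of a number came from the same pool. Inputs were dissected VMN, and outputs were immunoprecipitated RNA from SF1 cells, the VMN neurons marked by the transcription factor Nr5a1. The sources used here do not give strain, sex, age, how expression was limited to SF1 cells, or the species and paralog of the L10 sequence. RNA was amplified linearly before sequencing. The spread between libraries is therefore a spread between pools, and each pool was sequenced once per fraction.

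Total gene counts ran between 34.6 and 55.5 M per library. Outputs held 26.2 to 32.1 M counts on nuclear genes and inputs 8.5 to 11.3 M, since mitochondrial RNA took a larger part of the inputs. Summed over 7 markers of VMN neurons, the level was 1679 to 2304 normalized CPM (counts scaled to library size) in DN outputs, 514.6 to 703.4 in DN inputs, 1404 to 1599 in CTRL outputs and 501.5 to 557.2 in CTRL inputs. Summed over 7 astrocyte markers it was 1025 to 1137 in DN outputs, 2789 to 3168 in DN inputs, 1521 to 1724 in CTRL outputs and 2723 to 3303 in CTRL inputs. Summed over 7 oligodendrocyte markers it was 168.4 to 252.3, 879.5 to 1104, 196.5 to 354.4 and 869 to 1111 in the same order. All 7 VMN neuron markers were higher in outputs than in inputs without overlap in both conditions, and no gene of these 3 lists was at 0 throughout a group. The part of these marker differences in the results on ribosomal protein genes was not tested.

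The bases around the annotated transcription start are shown for the members on which the results turn. Rpl15 and Rpl10a stood higher in outputs. Rpl10 shares the L10 name of the tag, though the paralog in the tag is not stated. Rpl4 and Rps15a were the most abundant members of their subunits by CPM. Rpl13a, Rps24 and Rps4x stood lower in outputs in every pool, Rpl13a barely so in CTRL pool 2 (log2 ratio -0.01). The bases come from RefSeq on GRCm38.p6 and run 5′ to 3′ on the transcript's strand. Each line holds 15 bases before the start and 15 from it onward. Capitals mark a tract, defined as a C followed by at least 4 bases that are C or T and beginning within 5 bases of the start.
Rpl15 (chr14:18270972-18271001, minus strand): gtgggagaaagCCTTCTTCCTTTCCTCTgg
Rpl10a, upstream start (chr17:28328456-28328485, plus strand): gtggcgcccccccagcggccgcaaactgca
Rpl10a, downstream start (chr17:28328550-28328579, plus strand): gctctatttgagcgcatgcgcaaagcgctc
Rpl10 (chrX:74270801-74270830, plus strand): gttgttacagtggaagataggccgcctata
Rpl4 (chr9:64173372-64173401, plus strand): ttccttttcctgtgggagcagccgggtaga
Rpl13a (chr7:45128731-45128760, minus strand): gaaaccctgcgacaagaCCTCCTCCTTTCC
Rps15a (chr7:118116133-118116162, minus strand): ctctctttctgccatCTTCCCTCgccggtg
Rps24, upstream start (chr14:24490663-24490692, plus strand): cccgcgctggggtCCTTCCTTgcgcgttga
Rps24, downstream start (chr14:24490738-24490767, plus strand): tccggcgccgtagccatcatggtgagtctc
Rps4x (chrX:102189377-102189406, minus strand): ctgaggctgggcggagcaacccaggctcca
Of the 76 members, 56 had a start in the RefSeq table, and 27 of these (48.2%) had such a tract at an annotated start, against 21.8% of 16348 protein-coding genes. These were 16 of 34 members of the large subunit and 11 of 22 of the small subunit. Rpl15 had the longest tract of those printed, 17 bases, while neither annotated start of Rpl10a and not that of Rpl10 had one. The search used annotated starts only, which need not be the starts used in these neurons.

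Ribosomal protein genes were a small part of every library. Their 76 genes together took 0.207, 0.226 and 0.227% of nuclear gene counts in DN outputs, 0.307, 0.348 and 0.297% in DN inputs, 0.246, 0.274 and 0.256% in CTRL outputs and 0.280, 0.249 and 0.306% in CTRL inputs. The median member stood at 5.01 normalized CPM in DN outputs, 7.49 in DN inputs, 5.47 in CTRL outputs and 6.41 in CTRL inputs. Among nuclear protein-coding genes with a principal transcript of 500 to under 1000 bases, 20.9% had a mean of at least 1 CPM, and the median was 0 CPM in each group. The 39 members of that length had medians of 3.26 CPM in DN outputs, 6.2 in DN inputs, 4.53 in CTRL outputs and 4.24 in CTRL inputs. Of these, 8 exceeded the 95th percentile of the class in DN outputs (12.1 CPM) and 12 in DN inputs (11.2 CPM). In CTRL outputs 11 did (9.57 CPM), and in CTRL inputs 11 (9.46 CPM).

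Levels differed widely between members. Per kilobase of transcript, Rpl4, a large subunit protein whose extension reaches into the exit tunnel, led in all 4 groups, at 134 CPM per kb in DN outputs, 169 in DN inputs, 177 in CTRL outputs and 155 in CTRL inputs. Behind it within the large subunit in CTRL inputs came Rpl41, the smallest ribosomal protein, at 55.9 CPM per kb, and Rpl39, which lines the exit tunnel, at 40.3. High small subunit members per kb in CTRL inputs included Rps15, the highest, at 51.0 and Rps4x, encoded on the X chromosome, at 30.3.

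Among members that passed the filter on low counts in at least 1 fit, Rpl27 at 0.212, Rpl5 at 0.467 and Rpl23a at 0.665 CPM per kb were the lowest of the large subunit in CTRL inputs. Rpl28 at 0.101 and Rpl24 at 0.308 passed it in none. Rpl5 joins the 5S ribosomal RNA before it enters the large subunit. In the small subunit the lowest that passed were Rps29 at 0.206, Rps27 at 0.524 and Rps6, the classical substrate of S6 kinase, at 0.837.

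Sequence that a member shares with other annotated genes limits what gene counts can show, since reads that fall in it may not be assigned to a single gene. Of all 50-base windows of the principal transcript, a median of 51.5% (range 0 to 98.6%) also occurred in another annotated gene, and 39 of 76 members shared over 50% of their windows. The share was 30.2% for Rpl15, 88.1% for Rpl10a, 85.4% for Rpl10 and 16.5% for Rpl4.

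Across the 76 members, the mean level had a Spearman correlation of -0.55 with the shared share and of 0.37 with transcript length. The log2 ratio of output to input was less related to the shared share, at -0.10 over 70 members in DN pools and -0.22 over 71 in CTRL pools. These correlations are across genes measured in the same libraries and are given as descriptions. Reads placed in more than 1 position made up about 13% of outputs and 11% of inputs, per the closing entries of the deposited counts, so the level of a member with much shared sequence is uncertain.

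**Figure D1:**
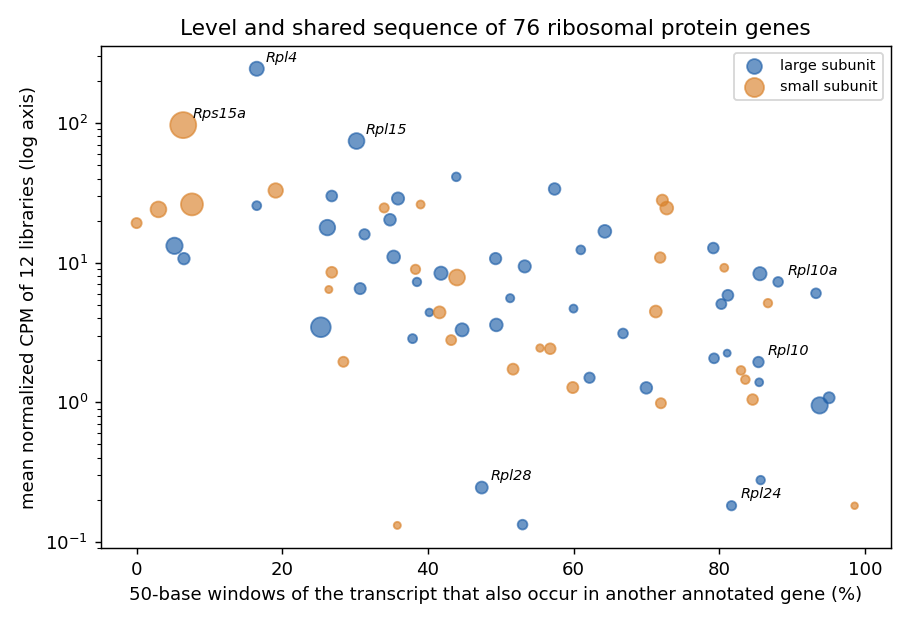
Mean normalized CPM over 12 libraries (log axis) of each of 76 ribosomal protein genes against the percentage of 50-base windows of its transcript that also occur in another annotated gene; blue marks the large and orange the small subunit, and larger points mark longer transcripts. Rpl4, Rpl15 and Rps15a stand highest, with 16.5, 30.2 and 6.4% of windows shared, and Rpl10a and Rpl10 lie beyond 80%.

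The first question was how ribosomal protein transcripts behaved in the pull-down. In DN pools, 57 of the 70 members tested had a log2 fold change of output over input below 0, against 49.8% of all genes tested, and the median was -0.53 against 0.00 for all genes. In CTRL pools, 53 of 71 lay below 0, against 49% of all genes, with a median of -0.28 against 0.02. Against this majority, Rpl15 was higher in outputs than in inputs in both conditions, with a fold change of 2.67 in DN pools and 4.94 in CTRL pools. It was the only member to pass the test. By unadjusted p below 0.05, 1 member was higher and 9 were lower in outputs of DN pools, against 8.17 and 7.48% of all genes, and 2 were higher and 1 lower in CTRL pools, against 8.71 and 7.64%. Rpl10a stood higher in outputs in all 6 pools without passing it. In RNA from dissected tissue, fewer cells of a type and less RNA per cell cannot be told apart.

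Rpl15 encodes a large subunit protein needed for the processing of ribosomal RNA, and in humans it is one of the genes mutated in Diamond-Blackfan anemia. It lies at chr14:18267823-18271391 (minus strand, GRCm38) with 4 exons in its principal transcript of 1922 bases. Rpl15 was at 139, 90.3 and 115 normalized CPM in DN outputs, against 40.6, 57.0 and 30.3 in DN inputs. It was at 150, 82.2 and 116 in CTRL outputs, against 30.3, 19.5 and 19.9 in CTRL inputs.

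Every output library lay above every input library in both conditions, and the outputs of DN and CTRL covered nearly the same range. The log2 fold change of output over input was 1.42 ± 0.28 (SE) in DN pools, adjusted p = 0.0173 by the quasi-likelihood test of edgeR. In CTRL pools it was 2.31 ± 0.28 (SE), adjusted p = 0.00134 by the same test. Rpl15 was thus 1 of 70 members called higher in DN pools, where 1.84% of all genes tested were called higher, and 1 of 71 in CTRL pools, where 1.78% were. No member was called lower, against 1.54% of all genes in DN pools and 1.42% in CTRL pools. Without DN pool 1 its DN value was 1.23 (adjusted p = 0.156, edgeR), and without DN pool 3 it was 1.21 (adjusted p = 0.165, edgeR). Then no member was called in DN pools.

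Within single pools, the log2 ratio of output to input (normalized CPM plus 1) of Rpl15 was 1.75, 0.65 and 1.89 in DN pools and 2.26, 2.02 and 2.48 in CTRL pools. DN pool 2 was thus the lowest of 6, with the lowest DN output and the highest DN input. Rpl15 made up 11.5% of the summed ribosomal protein level in DN outputs, 3.36% in DN inputs, 10.4% in CTRL outputs and 2.17% in CTRL inputs. Among 7714 protein-coding genes with a mean of at least 5 CPM, those whose pattern over the 12 libraries was most like that of Rpl15 included Slc8a2, Zfp365, Pja2 and Prlr, with Pearson correlations of log2 levels between 0.954 and 0.949.

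Rpl10a encodes the large subunit protein that forms the mobile L1 stalk, and it lies at chr17:28328471-28331033 (plus strand, GRCm38). Rpl10a was at 10, 7.99 and 10.9 normalized CPM in DN outputs, against 1.71, 3.76 and 6.52 in DN inputs. It was at 16.4, 11 and 8.74 in CTRL outputs, against 3.76, 2.97 and 3.57 in CTRL inputs. Outputs lay above inputs without overlap in both conditions, while DN and CTRL outputs overlapped.

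The log2 fold change of Rpl10a was 1.26 ± 0.73 (SE) in DN pools (adjusted p = 0.456, edgeR) and 1.80 ± 0.50 (SE) in CTRL pools (adjusted p = 0.0837, edgeR). Of 11 alternative fits of the CTRL value, only that by DESeq2 called it, with 1.78 and an adjusted p of 0.00925. Its pool ratios were 2.02, 0.92 and 0.67 in DN and 1.87, 1.59 and 1.09 in CTRL. The virus carried an L10 sequence of unstated origin, so RNA of the construct and of the endogenous gene cannot be told apart in gene counts.

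Rpl10 encodes a different large subunit protein, which joins late in assembly near the catalytic centre. Rpl10 was at 1.5, 1.06 and 1.43 normalized CPM in DN outputs, against 4.1, 0.81 and 3.8 in DN inputs. It was at 0.442, 1.34 and 1.28 in CTRL outputs, against 3.51, 0.967 and 3.03 in CTRL inputs. Replicate 2 of both inputs was low and overlapped the outputs. The log2 fold change was -1.14 ± 1.10 (SE) in DN pools (adjusted p = 0.693, edgeR) and -1.31 ± 0.99 (SE) in CTRL pools (adjusted p = 0.567, edgeR), and no high output level of Rpl10 was seen at these low counts.

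**Figure D2:**
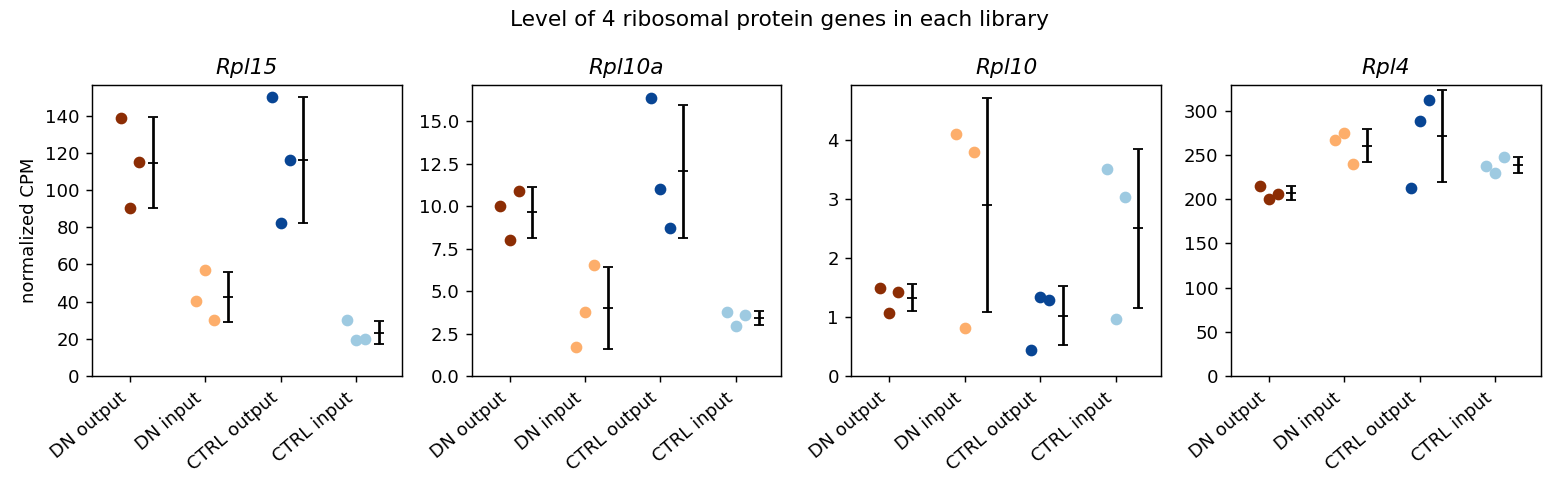
Normalized CPM of Rpl15, Rpl10a, Rpl10 and Rpl4 in each of 12 libraries, in the order DN output, DN input, CTRL output and CTRL input; points are pools and bars are the mean ± SD of 3 pools. Every Rpl15 and Rpl10a output lies above every input of its condition, whereas the Rpl10 groups overlap and DN outputs of Rpl4 (200 to 215) lie under DN inputs (240 to 275).

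Apart from Rpl15 and Rpl10a, the large subunit leaned towards inputs. Its median log2 fold change was -0.57 in DN pools, with 35 of 42 members below 0, and -0.31 in CTRL pools, with 34 of 43 below 0. In DN pools 17 of 42 large subunit members had all outputs under all inputs, and in CTRL pools 10 of 43. Over both subunits the counts were 25 of 70 members lower without overlap in DN pools, against 10.9% of all genes, and 15 of 71 in CTRL pools, against 11.2%. Members higher without overlap were Rpl10a and Rpl15 alone, 2 of 70 and 2 of 71, against 11.6 and 12% of all genes.

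Rpl32 was at 21.6, 22.3 and 21.8 normalized CPM in DN outputs, against 39.1, 46.4 and 38.5 in DN inputs, with a log2 fold change of -0.93 ± 0.32 (SE) and an adjusted p of 0.161 by edgeR. Rpl13a, known in human myeloid cells as part of a complex that silences inflammatory mRNAs, was at 32.2, 26.7 and 17.3 in DN outputs, against 38.3, 48.8 and 46.7 in DN inputs. Both genes had outputs wholly under inputs in DN pools. In CTRL pools Rpl32 was at 33.2, 31.2 and 27.4 in outputs, against 28.5, 23.5 and 26.0 in inputs, and these overlapped. Rpl13a also overlapped there, at 14.5, 38.2 and 26.8 in outputs, against 31.7, 38.3 and 44.3 in inputs. Both genes overlap a neighbour on their own strand over part of their exons (15.5% for Rpl32 and 59.3% for Rpl13a), so their counts are uncertain.

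Rpl7 had the lowest p of the large subunit members lower in CTRL outputs. It was at 4.75, 5.62 and 5.83 normalized CPM in CTRL outputs, against 16.6, 11 and 12.1 in CTRL inputs. The groups did not overlap, and the log2 fold change was -1.30 ± 0.44 (SE), adjusted p = 0.159 by edgeR. In DN pools, at 8.97, 5.59 and 7.12 in outputs against 8.99, 17.9 and 8.36 in inputs, the groups overlapped.

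The small subunit leaned the same way, with no member called. Its median log2 fold change was -0.49 in DN pools, with 22 of 28 members below 0, and -0.27 in CTRL pools, with 19 of 28 below 0. No small subunit member had outputs above inputs without overlap, against 11.6% of all genes in DN pools and 12% in CTRL pools. Outputs lay under inputs without overlap for 8 of 28 in DN pools, against 10.9% of all genes. In CTRL pools this held for 5 of 28, against 11.2%. The subunits were not tested against each other.

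Rps4x was at 26.6, 13.1 and 17.5 normalized CPM in DN outputs, against 46.5, 44.6 and 33.0 in DN inputs, with a log2 fold change of -1.13 ± 0.38 (SE) and an adjusted p of 0.146 by edgeR. In CTRL outputs it was at 18.7, 24.7 and 21.8, against 28.9, 31.4 and 28.4 in CTRL inputs. Outputs lay under inputs in both conditions. Rps24, which in humans is mutated in Diamond-Blackfan anemia, was at 20.2, 28.9 and 24.9 in DN outputs, against 44.6, 49.0 and 38.8 in DN inputs. In CTRL pools it was at 24.3, 27.9 and 26.3 in outputs, against 33.6, 34.9 and 40.3 in inputs, again without overlap. Its log2 fold changes were -0.85 in DN pools (adjusted p = 0.207, edgeR) and -0.48 in CTRL pools (adjusted p = 0.388, edgeR).

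Rps3, which sits at the mRNA entry channel, was at 8.90, 20.3 and 27.6 normalized CPM in DN outputs, against 30.7, 51.0 and 21.8 in DN inputs, and at 15.1, 17.1 and 20.3 in CTRL outputs, against 33.0, 16.4 and 26.0 in CTRL inputs. Its groups overlapped in both conditions. The small subunit gene with the highest CPM, Rps15a, was at 77.7, 107 and 86.6 in DN outputs, against 88.3, 87.2 and 99.7 in DN inputs, with a log2 fold change of -0.03 ± 0.22 (SE). In CTRL pools its log2 fold change was 0.16 ± 0.19 (SE). Most of the 5179 bases of its principal transcript lie outside the coding sequence of 390 bases.

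**Figure D3:**
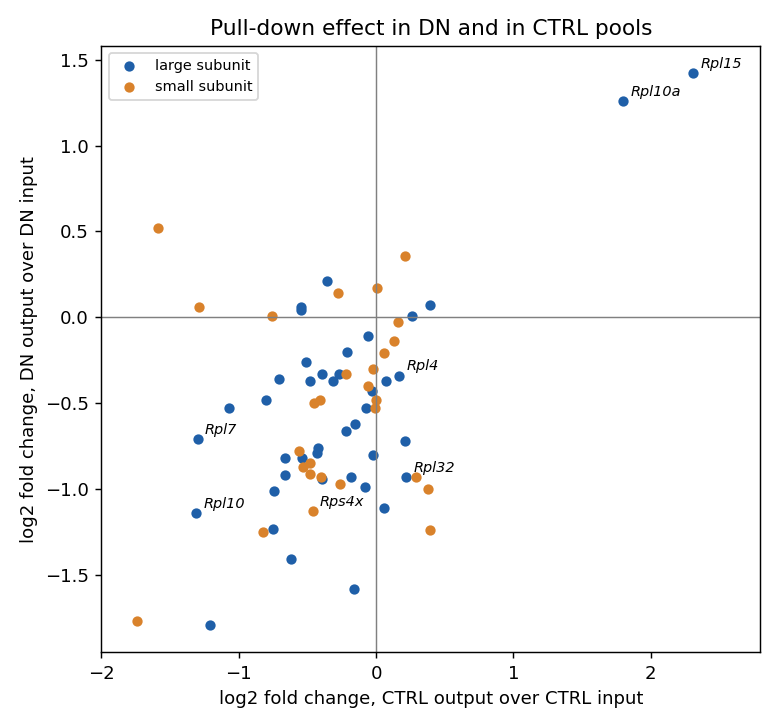
Log2 fold change of output over input in DN pools (vertical axis) against that in CTRL pools (horizontal axis) for the members tested in both; each point is a gene, blue for the large and orange for the small subunit. Rpl15 (1.42 and 2.31) and Rpl10a (1.26 and 1.80) stand apart at the upper right, and most other genes lie below 0 on both axes.

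Taken pool by pool, the median log2 ratio of output to input over the 76 members was -0.45, -0.44 and -0.24 in DN pools and -0.13, 0.05 and -0.45 in CTRL pools, where the median over all genes stayed within 0.01 of 0. In DN pools 12, 18 and 23 of 76 members lay above 0, and in CTRL pools 29, 40 and 15. CTRL pool 3 was thus as low as DN pools 1 and 2, and CTRL pool 2 was the only pool with a median above 0. The ranges of DN and CTRL pools overlapped, and without CTRL pool 3 the CTRL median of fitted log2 fold changes was -0.09.

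In the large subunit the pool medians were -0.55, -0.39 and -0.33 in DN and -0.17, -0.03 and -0.44 in CTRL. In the small subunit they were -0.32, -0.50 and -0.14 in DN and -0.03, 0.10 and -0.48 in CTRL. Rpl10a and Rpl15 were the only members above 0 in all 6 pools, against 7.89% of all genes tested. Below 0 in all 6 pools were 13 members, against 7.83% of all genes: Rpl7, Rpl9, Rpl11, Rpl13, Rpl13a, Rpl14, Rpl17, Rpl26, Rpl35a and Rpl36a of the large subunit and Rps4x, Rps24 and Rps27a of the small subunit. Some of their ratios were close to 0, such as -0.00 for Rpl7 in DN pool 1 and -0.01 for Rpl13a in CTRL pool 2.

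**Figure D4:**
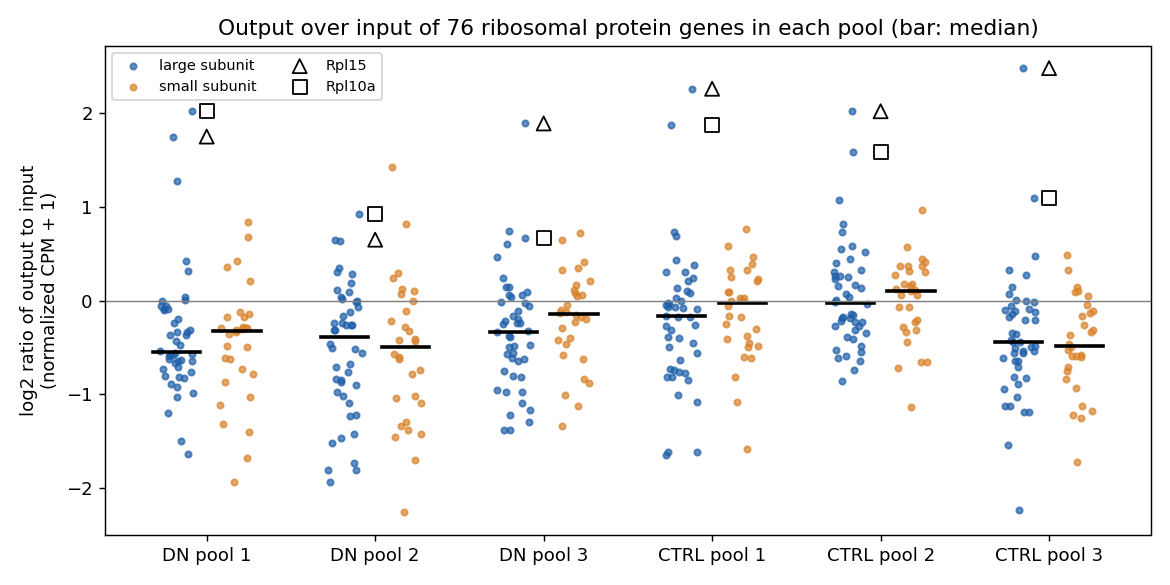
Log2 ratio of output to input (normalized CPM plus 1) of 76 ribosomal protein genes in each of 3 DN and 3 CTRL pools, with the large subunit in blue, the small subunit in orange and a bar at each median; the open triangle and square repeat the values of Rpl15 and Rpl10a beside their points. Both genes lie above 0 in all 6 pools, and the medians lie between -0.55 and 0.10.

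Members with and without a tract at an annotated start both leaned towards inputs. Of members with a tract, 21 of 25 had a log2 fold change below 0 in DN pools (median -0.66) and 18 of 25 in CTRL pools (median -0.22). Of members without one, 21 of 27 lay below 0 in DN pools (median -0.48) and 21 of 27 in CTRL pools (median -0.42). The 6 members that shared under 10% of their windows with other genes had medians of -0.70 in DN pools and -0.04 in CTRL pools, with 5 of 6 below 0 in DN pools and 4 of 6 in CTRL pools. For comparison, nuclear protein-coding genes with a transcript under 1000 bases had medians of -0.16 in DN pools (552 genes) and 0.01 in CTRL pools (544 genes).

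Other lists of the translation machinery had medians nearer to 0 or above it. Among 29 translation factors, 8 lay below 0 in DN pools (median 0.28) and 7 in CTRL pools (median 0.23), with none called. Among 18 other genes known for a terminal oligopyrimidine tract, 11 lay below 0 in DN pools and 10 in CTRL pools (median -0.09 in each), with none called. Examples are the elongation factor Eef2, with log2 fold changes of -0.48 in DN pools (adjusted p = 0.317) and -0.53 in CTRL pools (adjusted p = 0.118), both by edgeR, and the chaperone Npm1, with 0.43 and 0.29.

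Mitochondrial ribosomal proteins, which build a separate ribosome, had medians of 0.07 over 74 genes in DN pools and 0.24 over 73 in CTRL pools, with none called. Of the 42 ribosome assembly genes tested in CTRL pools, 1 was called higher, against 1.78% of all genes, and none lower, against 1.42%. The gene called was Tsr1, a factor of small subunit maturation, with 1.37 (adjusted p = 0.0292, edgeR). In DN pools Tsr1 had 0.08. Among 8 paralogs and fusion genes tested outside the symbol pattern, the median was -0.21 in DN pools, and Rps3a1, a full member of the small subunit, had -0.60 in DN pools and -0.35 in CTRL pools.

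The next question was whether ribosomal protein transcripts differed between DN and CTRL on the pulled-down ribosomes. In outputs, none of 74 members tested was called by edgeR, as was true of all genes tested (0%). Neither DESeq2 nor limma-voom called a member, and 1 member, Rpl4, had an unadjusted p below 0.05 and was lower, against 2.8% of all genes lower and 2.61% higher. Members lay evenly on both sides of 0, with 37 below and 37 above, and their median was -0.00 against 0.01 for all genes. The medians were 0.02 in the large subunit (44 members) and -0.03 in the small subunit (30 members).

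Rpl4 was at 215, 200 and 206 normalized CPM in DN outputs, against 213, 289 and 312 in CTRL outputs. The DN values lay close together, and CTRL pool 1 overlapped them. The log2 fold change was -0.39 ± 0.17 (SE), adjusted p = 0.911 by edgeR.

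Rpl15 and Rpl10a did not stand out here. For Rpl15 the log2 fold change was -0.02, with a 95% interval of -0.56 to 0.52, and for Rpl10a -0.32, with an interval of -1.41 to 0.77. For Rpl10 it was 0.38, with an interval of -2.14 to 2.90. Adjusted p was 0.985 or higher for all of them by edgeR.

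Other large subunit members with small p in outputs were Rpl23a and Rpl14. Rpl23a was at 0.0442, 0 and 0.0275 normalized CPM in DN outputs, against 0.671, 0.249 and 0.148 in CTRL outputs, with adjusted p = 0.911 by edgeR. Rpl14 was at 5.84, 5.75 and 3.6 in DN outputs, against 9.73, 10.4 and 8.79 in CTRL outputs, with a log2 fold change of -0.93 ± 0.57 (SE) and an adjusted p of 0.949 by edgeR. Both were lower in DN outputs without overlap, Rpl23a at a handful of counts.

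Rps7, mutated in some families with Diamond-Blackfan anemia, was at 1.24, 1.01 and 3.09 normalized CPM in DN outputs, against 0.571, 0.280 and 0.706 in CTRL outputs. It was the 1 member of 74 higher without overlap, against 5.17% of all genes, with adjusted p = 0.949 by edgeR. In all, 7 of 74 members were lower without overlap, against 5.87% of all genes. Rps20 was at 12.1, 25.6 and 17.5 in DN outputs, against 29.3, 38.9 and 21.4 in CTRL outputs, and these overlapped.

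Members with a tract at an annotated start had a median log2 fold change of -0.09 in outputs, with 18 of 26 below 0. Those without one had a median of 0.11, with 7 of 28 below 0, against 49.2% of all genes. No such split was seen in DN against CTRL inputs, with medians of 0.23 with a tract and 0.25 without. In the difference between the DN and CTRL pull-down effects both medians were -0.28. Members with and without a tract were not tested against each other. Of the 18 other genes known for a tract, 9 lay below 0 in outputs, and their median was 0.02. Translation factors had a median of 0.16, with 6 of 29 below 0. None of these genes was called. In the summed level of DN outputs against CTRL outputs, as given above, VMN neuron markers were higher, with 5 of 7 genes above 0 (median log2 fold change 0.33). Astrocyte markers were lower in their sum, yet 4 of 7 genes lay above 0 (median 0.07), and all 7 oligodendrocyte markers lay below 0 (median -0.73). The part of these markers in the values of the members was not tested.

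In the inputs, which hold RNA of all cells of the dissected tissue, none of 71 members was called by edgeR, where 0.00756% of all genes tested were called higher. By unadjusted p below 0.05, 3 members were higher in DN inputs, against 2.54% of all genes, and none was lower, against 1.91%. DESeq2 and limma-voom called no member. Members leaned upward in DN: 50 of 71 lay above 0 and 21 below it, against 47.8% of all genes below it. The median was 0.21 against 0.03 for all genes, and 14 of 71 were higher without overlap, against 5.17% of all genes. One, Rplp0 of the ribosomal stalk, was lower without overlap, against 5.37%. Nuclear protein-coding genes with a transcript under 1000 bases had the same median, 0.21 over 556 genes.

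The subunits were alike in this, with medians of 0.21 in the large subunit (32 of 43 above 0) and 0.23 in the small subunit (18 of 28 above 0). The 3 members with an unadjusted p below 0.05 were all of the large subunit. Rpl15, with the values given above, was 0.87 ± 0.33 (SE) higher on the log2 scale in DN inputs, adjusted p = 0.997 by edgeR. Rpl32 was at 39.1, 46.4 and 38.5 normalized CPM in DN inputs, against 28.5, 23.5 and 26.0 in CTRL inputs, a log2 difference of 0.67 ± 0.27 (SE), adjusted p = 0.997 by edgeR. Rpl23, known to bind the p53 regulator Mdm2, was at 25.8, 22.1 and 35.7 in DN inputs, against 13.5, 16 and 19.5 in CTRL inputs. All 3 were higher in DN inputs without overlap.

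In the small subunit Rps15 and Rps4x were among the members with the smallest p. Rps15 was at 37.9, 34.7 and 45.2 normalized CPM in DN inputs, against 27.8, 20.2 and 28.5 in CTRL inputs. Rps4x was at 46.5, 44.6 and 33.0 in DN inputs, against 28.9, 31.4 and 28.4 in CTRL inputs. Both were higher in DN without overlap, with log2 fold changes of 0.62 for Rps15 and 0.48 for Rps4x and an adjusted p of 0.997 for each by edgeR. For Rpl10a the difference was 0.22, with a 95% interval of -1.47 to 1.92, and for Rpl10 0.21, with an interval of -1.86 to 2.29. The summed pan-neuronal marker level, most of it Snap25, was 5301 to 5626 in DN inputs, against 4513 to 4973 in CTRL inputs. Of the 7 markers, 5 lay above 0 (median log2 fold change 0.30), Syt1 and Map2 lay below it, and none was called. The part of these markers in the values of the members was not tested.

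**Figure D5:**
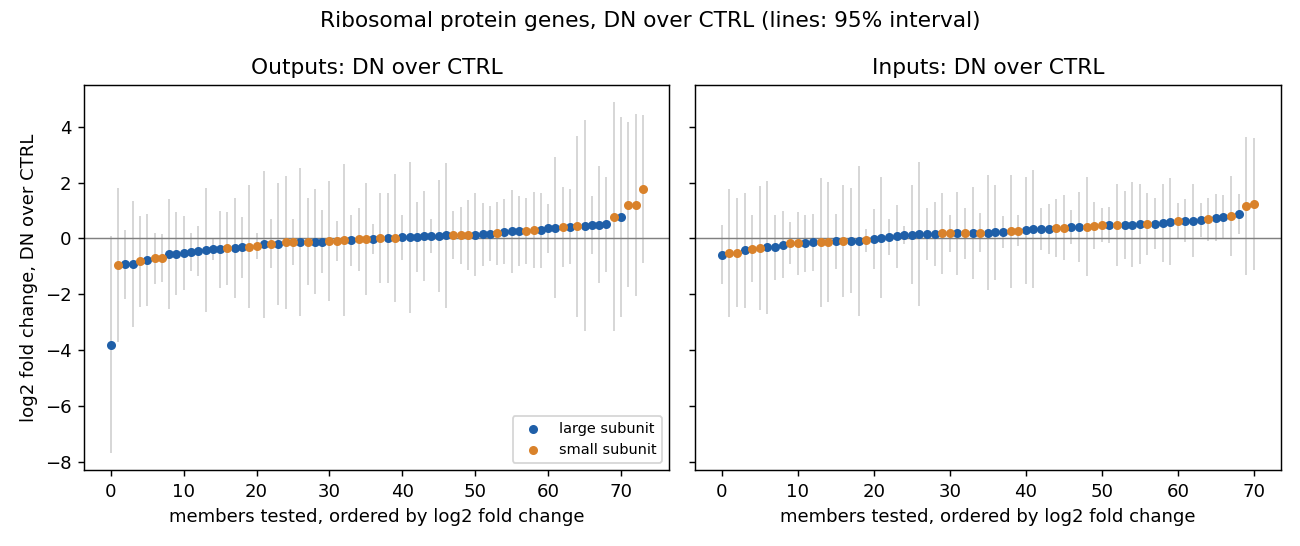
Fitted log2 fold change of DN over CTRL with its 95% interval for the members tested in outputs (left, 74 genes) and inputs (right, 71 genes), each ordered by value, with the large subunit in blue and the small subunit in orange. Outputs lie evenly about 0 and inputs mostly above it, with intervals wider than most of the differences. Rpl23a is the lowest gene in outputs, at -3.80.

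The pull-down effects of DN and CTRL pools were set against each other in a fit of all 12 libraries. None of 74 members was called by edgeR, as was true of all genes (0%). By unadjusted p below 0.05, 4 members (Rpl4, Rpl15 and Rpl32 among them) were lower and none higher, against 3.46% and 2.76% of all genes. DESeq2 and limma-voom called no member either. The median difference was -0.31 over members against -0.02 over all genes, and 54 of 74 members lay below 0, against 50.8% of all genes. The median was -0.34 in the large subunit and -0.28 in the small subunit.

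Rpl32 lay on opposite sides of 0 in the pools of each condition. The log2 ratio of output to input of Rpl32 was -0.83, -1.02 and -0.80 in DN pools and 0.21, 0.40 and 0.07 in CTRL pools. Every DN pool lay below every CTRL pool. The difference of effects was -1.15 ± 0.37 (SE), adjusted p = 0.691 by edgeR.

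For Rpl15 the difference of effects was -0.89 ± 0.40 (SE), adjusted p = 0.772 by edgeR, and for Rpl4 it was -0.52 ± 0.22 (SE), adjusted p = 0.749. Rpl15 was thus called in both conditions, while its larger value in CTRL pools was not shown to differ from that in DN pools. For Rpl10a the difference was -0.54, with a 95% interval of -2.26 to 1.17. Among the other small subunit members with small p, Rps18 had -1.63 ± 0.94 (SE) and Rps4x -0.67 ± 0.45 (SE), with adjusted p of 0.85 and 0.882 by edgeR.

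The summed level of all members was 979.1, 1030 and 989.5 normalized CPM in DN outputs, 1236, 1402 and 1171 in DN inputs, 1054, 1180 and 1099 in CTRL outputs and 1065, 979.2 and 1166 in CTRL inputs. DN outputs lay under DN inputs and under CTRL outputs without overlap, DN inputs lay just above CTRL inputs, and CTRL outputs overlapped CTRL inputs. Rpl4, Rpl15 and Rps15a alone made up 41.2% of the sum in DN outputs, 31.1% in DN inputs, 44.6% in CTRL outputs and 33.5% in CTRL inputs.

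Without these 3 genes the sum was 548.2 to 633.3 in DN outputs, 801.2 to 983 in DN inputs, 572.5 to 678.9 in CTRL outputs and 642.4 to 805.1 in CTRL inputs. DN outputs still lay under DN inputs, whereas DN and CTRL then overlapped in outputs and in inputs. The large subunit sum was 664.3 to 681 in DN outputs, 746.1 to 896.5 in DN inputs, 699.9 to 782.7 in CTRL outputs and 629.9 to 728.3 in CTRL inputs. The small subunit sum was 298.1 to 350.8 in DN outputs, 424.9 to 505.8 in DN inputs, 332.1 to 397.5 in CTRL outputs and 349.4 to 437.2 in CTRL inputs. These sums depend on how mitochondrial RNA enters the scaling. As a share of all gene counts, mitochondrial included, members took more of the outputs (0.165% in DN, 0.2% in CTRL) than of the inputs (0.068% in DN, 0.0671% in CTRL).

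A few members could not be followed. Rpl24, with 0 to 83 counts per library, and Rpl28, with 0 to 49, passed the filter on low counts in none of the 5 fits. Rpl27, Rps27 and Rps29 passed in 2 of 5 and Rpl23a in 4 of 5. Counts and medians from the fits, and counts of groups without overlap, are over the members that passed, not over all 76. Levels, sums, shares of counts and pool ratios are over all 76, those near 0 included. The pool ratios of all genes are over genes that passed in the fit of 12 libraries.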

How the data were processed

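Raw counts per Ensembl gene were deposited by the authors, 1 list per library, with no normalization. The genome build was GRCm38 and the tools were HTSeq 0.6.1, STAR 2.4.2a and cutadapt 1.3, per the submitters' processing notes. The sources used here do not give the strand setting or the annotation release. The 5 closing entries without a gene (16.1 to 26.1% of all reads listed) were left out. Symbols came from GENCODE release 21 for mouse (46005 of 46517 identifiers, 98.9%).

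Tests were two-sided quasi-likelihood tests over all genes (edgeR 4.0.16, R 4.3.3). They compared groups without pairing the output and input of a pool, and the pool as a block was an alternative. Library sizes were scaled by TMM, genes were kept by filterByExpr at a minimum count of 10 and a total of 15, and p-values were adjusted by Benjamini-Hochberg at a threshold of 0.05. Levels are normalized CPM with TMM factors over 12 libraries, as mean and SD of 3 pools. Pool ratios used a pseudocount of 1 CPM. Shared sequence was counted over 50-base windows of annotated transcripts on either strand, genes overlapping at the same position included. Intervals are at 95% and cover the spread between pools. Alternatives were DESeq2 1.42.0, limma 3.58.1 (voom) and others in the closing section. The procedure was run on simulated counts with large changes, for the CTRL pull-down and for DN against CTRL outputs only. The outcome is not given here, and small changes and the other fits were not simulated.

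The members, lists and rules were chosen with earlier results of these data known. Named were Rpl10, Rpl10a and Rpl15 always, members called, else the 3 of smallest p per subunit and comparison, and the 3 highest and lowest levels per kb. Rps15a, and members listed for lying on 1 side of 0 or for little shared sequence, were named after their values were seen. By the study's design, output and input of a number share a pool; deviations from group means correlated within pools at 0.00, -0.00 and 0.02 in DN and 0.10, 0.03 and 0.16 in CTRL. No 2 libraries held identical values. Some named genes are not reported here.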

Additional observations from a re-analysis of the deposited data

How the results depend on the processing

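DESeq2 called 3 members in DN pools (Rpl15, Rpl32, Rps4x) and 3 in CTRL pools (Rpl10a, which had 1.78, Rpl15 and Rpl7), against 1 each by edgeR. The share of all genes that DESeq2 called is not given here. These counts can therefore not be read as a result about the members as a set. Leaving out 1 pool gave 0 to 1 members called in DN outputs over inputs, with Rpl15 between 1.21 and 1.83, no longer called without DN pool 1 (1.23) or DN pool 3 (1.21). In CTRL pools Rpl15 was called under all 11 alternatives run. With the pool as a block, Rpl15 was again the only member called in each pull-down (adjusted p = 0.0221 in DN and 0.000157 in CTRL, edgeR); between DN and CTRL the block joins unrelated pools that share a number, and no call changed. The values near 0 changed sign. Rpl15 in DN against CTRL outputs was 0.02 by limma-voom, 0.00 with the block and -0.21 to 0.21 with 1 pool left out (0.13 without DN pool 2, 0.21 without CTRL pool 1). In inputs Rpl10 ran between -0.18 and 0.65 with 1 pool left out, at -0.12 without DN pool 1, -0.03 without DN pool 3 and -0.18 without CTRL pool 2, and Rpl10a between -0.33 (without DN pool 3) and 0.58. The interaction of Rpl10 ran between -0.52 (without CTRL pool 1) and 0.80, with -0.13 without DN pool 2. The median of members in outputs ran between -0.10 and 0.07 with 1 pool left out (-0.08 without DN pool 2). Medians stayed below 0 in both pull-downs (-0.69 to -0.47 in DN, -0.51 to -0.09 in CTRL) and in the interaction (-0.43 to -0.12, the highest without CTRL pool 2) and above 0 in inputs (0.13 to 0.37). The cause of these changes was not tested. Sums without Rpl4, Rpl15 and Rps15a, and medians with 1 pool left out, were chosen after seeing the data. Values of the members under 1 CPM (12 of 76 in DN outputs, 14 in CTRL outputs) are uncertain. The parts of depth and of shared sequence in their low levels were not tested.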
